A study of Mus musculus with 4 samples.

Results

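The genes described here write, keep and remove cytosine methylation in DNA: the methyltransferase family genes Dnmt1, Dnmt3a, Dnmt3b and Dnmt3l, the Dnmt1 recruitment factor Uhrf1 and its paralogue Uhrf2, the dioxygenases Tet1, Tet2 and Tet3, and the glycosylase Tdg. They were taken by name, though with earlier results of these data known. All 10 matched a gene among the 53715 of the deposited count table. The libraries came from cells labelled as primordial germ cells, from which gametes form, of C57BL/6 mouse embryos at E12.5. There were 2 libraries labelled Rif1_KO (Rif1 knockout) and 2 labelled WT (wild type), each from 1000 cells enriched with magnetic beads and amplified by a modified Smart-seq2 protocol with Tn5 tagging. Rif1 encodes a chromatin protein of replication timing and double-strand break repair. How Rif1 was deleted, in which cells, and which marker the beads carried are not given in the sources used here. Nothing says that the paired libraries are separate cultures or embryos, so each p-value reflects library-to-library spread that may be technical.

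Methylation at CpG sites is copied at replication by DNMT1, which UHRF1 brings to hemimethylated DNA. New methylation is set by DNMT3A and DNMT3B, with DNMT3L as a cofactor without catalytic activity of its own. TET enzymes oxidize 5-methylcytosine, and TDG excises the more oxidized forms so that base excision repair can restore an unmodified cytosine. Mouse germ cells that colonize the gonad are known to lose nearly all CpG methylation, in a period when Uhrf1 and Dnmt3b are known to be low and Tet1 and Tet2 to be expressed. DNA methylation itself was not measured here.

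Library totals ran between 11724630 and 14421298 counts. Rif1 had 86.2 and 63.9 CPM in the libraries labelled Rif1_KO (replicate 1, then 2, here and in each pair of values), against 43.7 and 4.73 CPM in those labelled WT. CPM are counts per 1000000 of the TMM-scaled total over tested genes. The targeted gene's counts thus go against the labels, so directions below follow the labels alone. Library makeup differed by label. Genes with at least 10 counts numbered 15226 and 16211 under Rif1_KO, against 13314 and 13566 under WT. The rRNA region took 3.87% and 7.15% of counts under Rif1_KO, against 15.8% and 17.6% under WT. Haemoglobin genes took 1.08% and 0.56% under Rif1_KO, against 11.8% and 8.92% under WT. Mitochondrial shares overlapped. The part of this makeup in the levels below was not tested. Germ cell markers were sparse outside WT replicate 2. The 14 markers summed to 40.7 and 46.8 CPM under Rif1_KO, against 59.1 and 487 CPM under WT, with 0 of 14 at a count of 0 in each library. The pluripotency and germ cell factor Pou5f1 had at most 13 counts in any library, and Ddx4, a defining germ cell helicase, had 1.05 and 0.530 CPM under Rif1_KO, against 0.645 and 59.2 CPM under WT. The gonadal somatic regulator Wt1 had 155 and 168 CPM under Rif1_KO, against 227 and 95.7 CPM under WT. The labelled cell type was thus weakly marked in the other libraries, while a gonadal somatic marker was present in all 4.

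Most writers and erasers had higher values in the libraries labelled Rif1_KO, and none passed the edgeR test. For 7 of 10 genes (Dnmt1, Uhrf1, Uhrf2, Dnmt3a, Dnmt3b, Tet1 and Tet2) both values under Rif1_KO lay above both under WT. Across 15466 tested genes this held for 21.0%, and the reverse order for 18.4%. The 10 genes together summed to 290.0 and 286 CPM under Rif1_KO, against 83.4 and 115 CPM under WT. They took 0.0319% and 0.0374% of all counts under Rif1_KO, against 0.00709% and 0.00914% under WT. The plot of levels by library shows the separation for each gene. In bulk libraries, more cells of a type that makes these transcripts and more transcript per cell cannot be told apart.

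**Figure D1:**
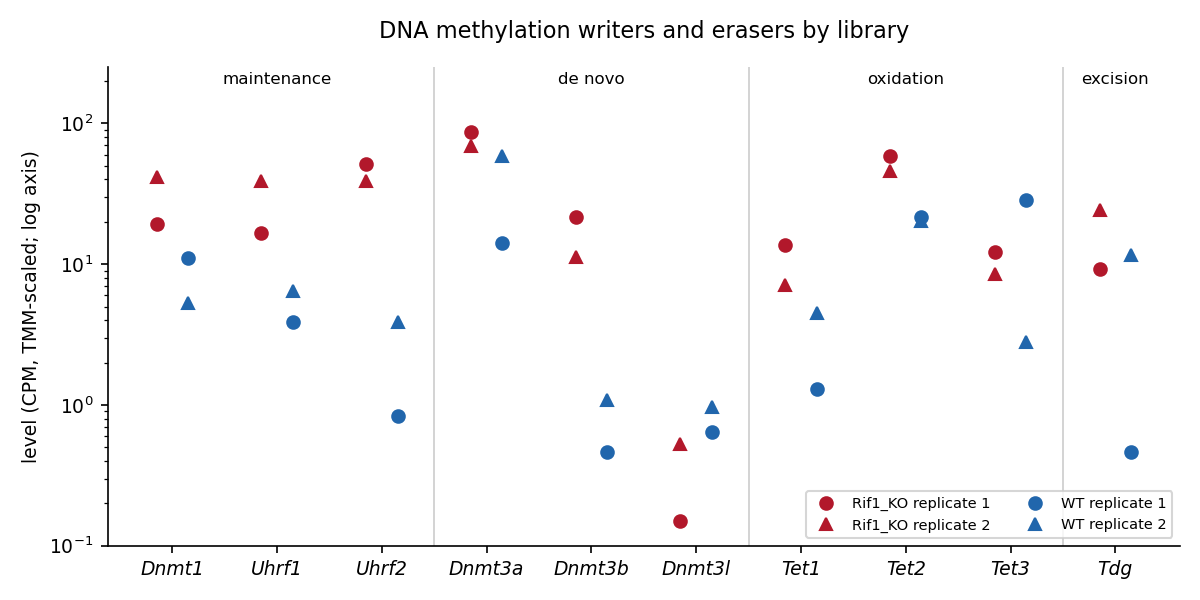
Level of each gene in each library, in CPM on a log axis, with the Rif1_KO values left of the WT values and the genes ordered by role. Dnmt3b and Uhrf2 show the widest gaps (at least 11.3 and 38.9 CPM under Rif1_KO, at most 1.08 and 3.87 CPM under WT), while the values of Tet3 and Tdg overlap.

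By edgeR's quasi-likelihood test with Benjamini-Hochberg adjustment over all tested genes, 0 of the 9 genes tested were called at 0.05, and 0.0129% of all tested genes were called (2 genes, both lower). Dnmt3l did not reach the minimum count for testing. At an unadjusted p under 0.05, Dnmt3b and Uhrf2 were higher by edgeR, where 5.35% of all tested genes were, and 0 of the 9 were lower, where 3.05% were. The same pair had the log2 fold changes above 4, a size that 3.09% of all tested genes passed. DESeq2 called the same pair higher, and it called 2.13% of all tested genes higher. With limma-voom 0 of the 9 were called, and 2 of all 15466 tested genes, both lower. The median log2 fold change of the 9 was 1.85, against -0.11 over all tested genes. Dnmt3b, Uhrf2 and Tdg reached the minimum count in both libraries of a group only under Rif1_KO, so that a difference in that direction was built into their being tested.

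Among the maintenance genes, Uhrf2 had the widest separation. It encodes a paralogue of UHRF1 that binds modified cytosines but is not known to replace UHRF1 in maintaining methylation. Uhrf2 (ENSMUSG00000024817.13, chromosome 19, 30030513 to 30093722, mm10) had 686 and 734 counts under Rif1_KO, against 9 and 36 under WT. In CPM these were 51.7 and 38.9 under Rif1_KO, against 0.829 and 3.87 under WT. The lower Rif1_KO value was 10.05 times the higher WT value, and for Dnmt3b 10.5 times, and 2.19% of all tested genes had a gap of 10 times or more. This threshold was chosen after the values were seen. Uhrf2 was tested only through its Rif1_KO counts, so a difference in that direction was built in and its calls cannot count as support. The log2 fold change was 4.27 (SE 1.21), with both Rif1_KO libraries above both WT libraries, at an edgeR adjusted p of 0.571 and a DESeq2 adjusted p of 0.00539. With 1 library left out it was 3.55 without WT replicate 1 and 5.76 without WT replicate 2, and edgeR called it in both fits (adjusted p = 0.0225 and 0.00154). It was 4.14 without Rif1_KO replicate 1 and 4.48 without Rif1_KO replicate 2, and edgeR called it in neither fit (adjusted p = 1.0 in both). In the fits without a WT library, the lone WT library is assumed to vary like the Rif1_KO pair, and 3.15% and 1.98% of all tested genes were called higher in them.

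Uhrf1, whose protein reads hemimethylated CpG and recruits DNMT1, showed a smaller difference. Uhrf1 (ENSMUSG00000001228.14, chromosome 17, 56303321 to 56323486) had 16.6 and 38.9 CPM under Rif1_KO, against 3.87 and 6.45 CPM under WT, from 220 and 734 counts against 42 and 60. Its log2 fold change was 2.42 (SE 1.19, edgeR adjusted p = 0.633), and 1.7 to 3.0 with 1 library left out. Dnmt1 (ENSMUSG00000004099.16, chromosome 9, 20907209 to 20959888), the maintenance methyltransferase gene, had 19.3 and 41.6 CPM under Rif1_KO, against 11.1 and 5.27 CPM under WT. Its log2 fold change was 1.89 (SE 1.11, edgeR adjusted p = 0.7), and 1.24 without Rif1_KO replicate 2 to 2.53 without WT replicate 1. For both genes Rif1_KO replicate 2 was the highest library, 2.35 times replicate 1 for Uhrf1 and 2.16 times for Dnmt1. Under WT their order was not shared, with Dnmt1 higher in replicate 1 and Uhrf1 in replicate 2. Dnmt1, Uhrf1 and Uhrf2 summed to 87.6 and 119 CPM under Rif1_KO, against 15.9 and 15.6 CPM under WT.

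Transcripts of dividing cells had similar sums under both labels, with both Rif1_KO sums above both WT sums. The 14 proliferation genes, among them Mki67 and the MCM helicase genes, summed to 1047 and 1088 CPM under Rif1_KO, against 907 and 1010 CPM under WT. Of these genes 0 of 14 passed the edgeR test in either direction, where 0.0129% of all tested genes did. The median log2 fold change was 0.24. For 3 of 14 both Rif1_KO values lay above both WT values, where 21.0% of all tested genes did. The reverse order held for 0 of 14, and for 18.4% of all tested genes. Hells, a chromatin remodeller needed for full methylation, had 106 and 63.6 CPM under Rif1_KO, against 54.7 and 100 CPM under WT. Cdca7, which activates that remodeller, had 50.3 and 51.2 CPM under Rif1_KO, against 46.1 and 32.8 CPM under WT. The values of Hells overlapped. Those of Cdca7 were close, though both Rif1_KO values lay above both WT values.

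E2F factors drive many genes of S phase, so the promoter windows of the genes were searched for E2F-type letters. The windows, from RefSeq on GRCm38.p6, span 250 bases before to 50 after each annotated start, with 17 windows for the 10 genes. The letters TTTCGCGC, TTTGGCGC or TTTCCCGC, on either strand, occurred in 2 of the 17 windows, 1 each of Dnmt1 and Uhrf1, and in 1.84% of all 32851 windows. A stretch of 30 bases from each of these genes is shown because no other of the 10 genes held a match. Uhrf2, also grouped with the maintenance genes, held none. Capitals mark the matched letters, and the text of each runs 5′ to 3′ on the strand of the gene. The Dnmt1 stretch is chr9:20952824-20952853 (minus strand, its match beginning 219 bases before the start). A second Dnmt1 match lies 34 bases after the same start. The Uhrf1 stretch is chr17:56304117-56304146 (plus strand, 185 bases before the start).
Dnmt1: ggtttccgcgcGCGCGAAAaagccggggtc
Uhrf1: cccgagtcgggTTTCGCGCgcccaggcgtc
A match describes letters only and is no evidence of binding.

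Of the de novo genes, Dnmt3b separated the labels by an order of magnitude and Dnmt3a narrowly. Dnmt3b (ENSMUSG00000027478.15, chromosome 2, 153649450 to 153687730) encodes a de novo methyltransferase active in the early embryo. It had 287 and 214 counts under Rif1_KO, against 5 and 10 under WT. The exact Poisson 95% intervals of these counts were 255 to 322 and 186 to 245 under Rif1_KO, against 1.62 to 11.7 and 4.80 to 18.4 under WT. The intervals treat reads as independent draws and leave out spread between libraries, and those of the Rif1_KO libraries did not meet each other either. In CPM the values were 21.6 and 11.3 under Rif1_KO, against 0.461 and 1.08 under WT. Dnmt3b was tested only through its Rif1_KO counts, so a difference in that direction was built in and its calls cannot count as support. The log2 fold change was 4.41 (SE 1.51), again with no overlap, at an edgeR adjusted p of 0.571 and a DESeq2 adjusted p of 0.00666. It was 3.93 to 5.13 with 1 library left out, with edgeR adjusted p between 0.0616 and 1.0. Among tested genes ranked by level per kilobase of exon, Dnmt3b stood at percentiles 62.8 and 46.6 under Rif1_KO, against 9.0 and 18.4 under WT.

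Dnmt3a, the second de novo enzyme and the most abundant of the 10 genes by CPM in 3 of the 4 libraries, was uneven under WT. Dnmt3a (ENSMUSG00000020661.15, chromosome 12, 3806007 to 3914443) had 87.0 and 68.9 CPM under Rif1_KO, against 14.2 and 58.5 CPM under WT. Its log2 fold change was 1.10 (SE 0.77, edgeR adjusted p = 0.755). Without WT replicate 2 it was 2.46 and called by edgeR (adjusted p = 0.0399), and without WT replicate 1 it was 0.41 (adjusted p = 0.741). Without either Rif1_KO library it was not called (adjusted p = 1.0 in both fits). An antisense gene, Dnmt3aos, overlaps 0.8% of its exon bases and had at most 19 counts.

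Dnmt3l (ENSMUSG00000000730.13, chromosome 10, 78041947 to 78063622), the cofactor gene that male germ cells are known to use later, was barely detected. It had 2 and 10 counts under Rif1_KO, against 7 and 9 under WT. The exact Poisson intervals were 0.24 to 7.22 and 4.80 to 18.4 under Rif1_KO, against 2.81 to 14.4 and 4.12 to 17.1 under WT. A difference was not detectable at this depth, although in CPM both Rif1_KO values (0.151 and 0.530) lay below both WT values (0.645 and 0.967). Its neighbour Aire, at the 5′ end, overlaps 2.24% of its exon bases on the other strand and had 8 and 109 counts under Rif1_KO, against 7 and 13 under WT. The counts were made without a strand option, so reads in that overlap cannot be assigned to one of the genes.

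The upstream sequences of Dnmt3b and Uhrf2 are shown because these genes had the widest gaps and were nearest to each other in profile. Each runs 5′ to 3′ over the 250 bases before the RefSeq start (GRCm38.p6), with CpG sites in capitals, the dinucleotide on which the encoded proteins act. The Dnmt3b sequence is chr2:153649199-153649448 (plus strand) and the Uhrf2 sequence chr19:30030263-30030512 (plus strand).
Dnmt3b: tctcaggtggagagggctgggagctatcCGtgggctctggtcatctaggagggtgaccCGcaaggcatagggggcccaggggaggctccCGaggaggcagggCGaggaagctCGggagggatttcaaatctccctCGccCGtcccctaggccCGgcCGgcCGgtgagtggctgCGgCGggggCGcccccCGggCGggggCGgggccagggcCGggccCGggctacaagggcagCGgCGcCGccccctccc
Uhrf2: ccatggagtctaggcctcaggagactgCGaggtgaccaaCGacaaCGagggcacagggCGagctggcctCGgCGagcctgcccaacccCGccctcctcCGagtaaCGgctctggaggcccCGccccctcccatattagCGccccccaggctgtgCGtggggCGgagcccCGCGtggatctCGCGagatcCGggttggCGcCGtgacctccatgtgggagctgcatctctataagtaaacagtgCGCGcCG
They hold 21 and 23 CpG sites. Of all windows, 83.7% had fewer than the first and 86.7% fewer than the second, and the median window had 6. The letters GGGCGG, a GC box, occurred on either strand in 13 of the 17 windows, from all genes but Tdg, and in 35.7% of all windows. No E2F-type letters were found in these particular windows, which says nothing of other parts of the genes.

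Among the genes of removal, Tet2 was the steadiest within pairs. Tet2 (ENSMUSG00000040943.12, chromosome 3, 133463679 to 133545139) had 58.6 and 46.1 CPM under Rif1_KO, against 21.7 and 20.2 CPM under WT. The WT values differed by 1.08 times. The log2 fold change was 1.32 (SE 0.71, edgeR adjusted p = 0.668) and stayed between 1.22 and 1.5 with any 1 library left out. Tet1 (ENSMUSG00000047146.17, chromosome 10, 62804570 to 62908996), known for its part in demethylation of imprinted and meiotic genes in germ cells, had 13.8 and 7.15 CPM under Rif1_KO, against 1.29 and 4.52 CPM under WT. Its log2 fold change was 1.85 (SE 1.40, edgeR adjusted p = 0.775), with 1.21 without WT replicate 1 and 3.01 without WT replicate 2.

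Tet3 and Tdg did not separate the labels, and their WT libraries differed widely from each other. Tet3 (ENSMUSG00000034832.15, chromosome 6, 83362373 to 83459084), known as the TET enzyme of the zygote, had 12.1 and 8.53 CPM under Rif1_KO, against 28.7 and 2.79 CPM under WT. Its log2 fold change was -0.61 (SE 1.42, edgeR adjusted p = 0.951), and the sign turned without WT replicate 1 (1.88, against -1.48 without WT replicate 2). Tdg (ENSMUSG00000034674.18, chromosome 10, 82629828 to 82650799) had 9.19 and 24.2 CPM under Rif1_KO, against 0.461 and 11.6 CPM under WT. Its log2 fold change was 1.47 (SE 1.67, edgeR adjusted p = 0.861), with 5.15 without WT replicate 2 and 0.52 without WT replicate 1. Within the WT pair the values differed 25.2 times for Tdg and 10.3 times for Tet3. For comparison, the median absolute log2 difference between the libraries of a pair over all tested genes was 0.82 under Rif1_KO and 1.25 under WT, while Tdg had 4.52 and Tet3 3.34 under WT. Reads of processed Tdg copies were few, with at most 3 counts for Tdg-ps in any library, although the mapping quality limit may also have removed Tdg reads. The gene Glt8d2 overlaps 6.83% of the Tdg exon bases on the other strand and had 4 to 8 counts.

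**Figure D2:**
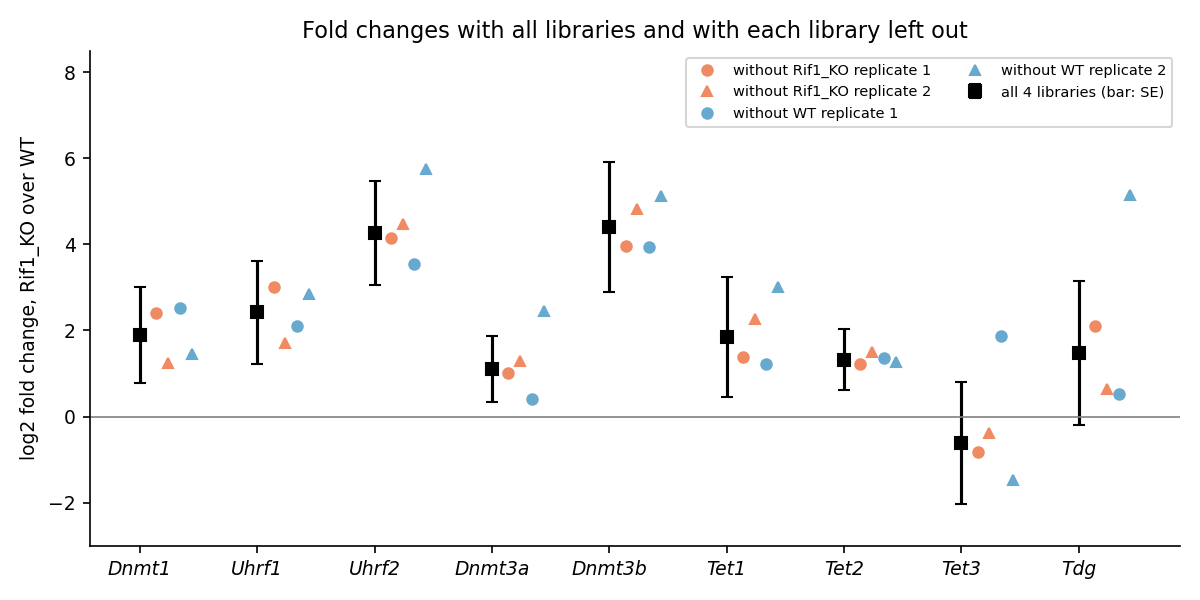
Log2 fold change of each tested gene, Rif1_KO over WT, by edgeR: black squares with all 4 libraries (bars are SE), coloured points with 1 library left out. Tet2 stays between 1.22 and 1.5, Uhrf2 and Dnmt3b stay above 3.5, and Tet3 changes sign without WT replicate 1.

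Shares within a family do not depend on the scaling of the libraries. For 2 against 2 libraries the smallest two-sided exact permutation p is 0.333, which leaves the shares without a test. Uhrf2 made up 75.7% (95% Clopper-Pearson interval 72.8 to 78.5) of the Uhrf1 and Uhrf2 counts in Rif1_KO replicate 1. In Rif1_KO replicate 2 it had 734 of 1468 such counts (interval 47.4 to 52.6%). Under WT it made up 17.6% (8.40 to 30.9) and 37.5% (27.8 to 48.0). The means were 62.9% ± 18.2 under Rif1_KO and 27.6% ± 14.04 under WT (SD, n = 2 each). The labels did not overlap in this share, but the intervals of Rif1_KO replicate 2 and WT replicate 2 did.

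Dnmt3b made up 19.9% (17.9 to 22.1) and 14.1% (12.4 to 16.0) of the Dnmt3a and Dnmt3b counts under Rif1_KO, against 3.14% (1.03 to 7.19) and 1.81% (0.869 to 3.29) under WT. The means were 17.0% ± 4.09 under Rif1_KO and 2.48% ± 0.947 under WT (SD, n = 2 each). No interval of one label met an interval of the other, but those of the Rif1_KO libraries did not meet each other either. The WT shares rest on 5 and 10 counts of Dnmt3b, which was tested only through its Rif1_KO counts. When counts were divided by exon length, the shares were 44.8% and 34.9% under Rif1_KO, against 9.57% and 5.65% under WT, because the Dnmt3a model holds 16642 exon bases and the Dnmt3b model 5106. The intervals treat reads as independent draws and leave out spread between libraries. The reads carry no molecular identifiers, so copies made in amplification may make the intervals too narrow.

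**Figure D3:**
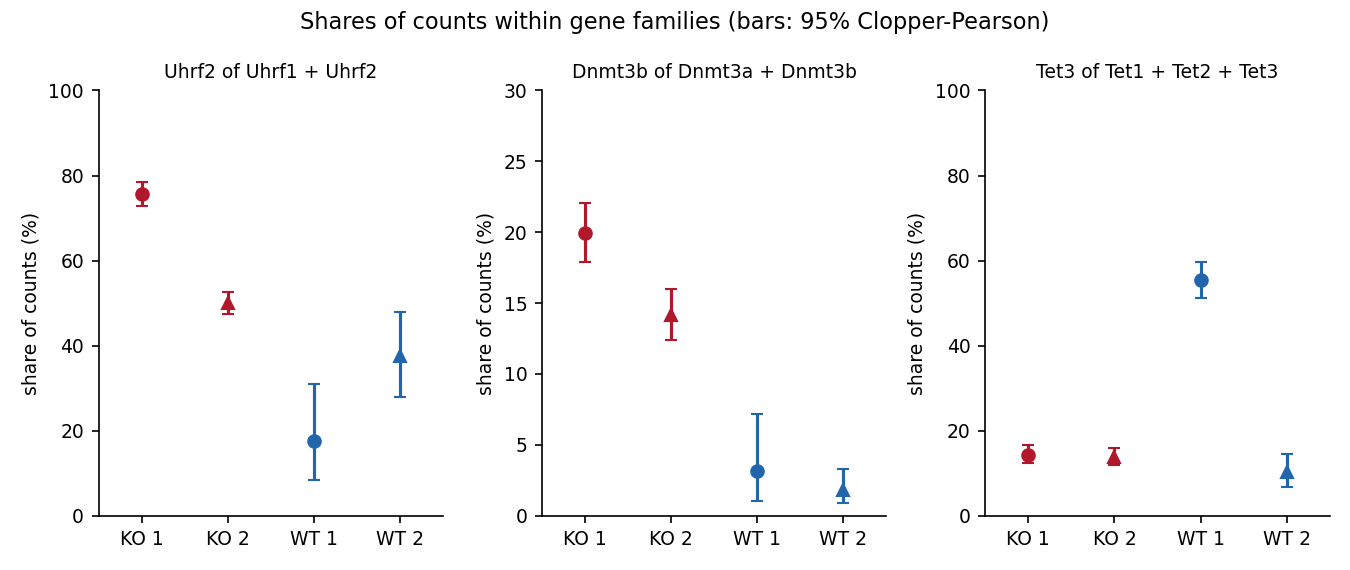
Share of counts within 3 gene families by library, in percent, with 95% Clopper-Pearson intervals as bars; KO is Rif1_KO, and the middle axis ends at 30%. The Dnmt3b share lies at 14.1% or more under Rif1_KO and at 3.14% or less under WT, while the Tet3 share of WT replicate 1 (55.5%) stands apart from the other 3 libraries.

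Within the TET family the libraries did not follow the labels. Tet2 was the most counted TET gene in 3 libraries, with 69.3% and 74.6% of TET counts under Rif1_KO and 73.4% in WT replicate 2. In WT replicate 1 it was Tet3, with 55.5% (51.3 to 59.7), against 14.3% and 13.8% under Rif1_KO and 10.2% in WT replicate 2. Tet1 had 16.3% and 11.6% of TET counts under Rif1_KO, against 2.49% and 16.4% under WT. The ratio of TET counts to those of Dnmt1, Dnmt3a and Dnmt3b was 0.661 and 0.507 under Rif1_KO, against 2.01 and 0.424 under WT. WT replicate 1 was therefore the only library with more TET than methyltransferase counts.

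Levels were compared between genes per kilobase of exon (CPM per kb, exon length of the gene model). Under Rif1_KO the order of the means was Uhrf1 (6.51), Uhrf2 (5.27), Dnmt3a (4.68), Dnmt1 (4.13), Dnmt3b (3.23), Tet2 (3.10), Tdg (3.10), Tet1 (0.677), Tet3 (0.619) and Dnmt3l (0.114). Neighbours in this order overlapped between libraries except Tdg with Tet1 and Tet3 with Dnmt3l. Under WT the order was Dnmt3a (2.18), Tet2 (1.24), Uhrf1 (1.21), Tdg (1.12), Dnmt1 (1.11), Tet3 (0.944), Uhrf2 (0.274), Dnmt3l (0.270), Tet1 (0.188) and Dnmt3b (0.150), and every pair of neighbours overlapped. The order differed between libraries: Dnmt3b had the lowest mean under WT but was lowest in neither WT library, where Tet1 (replicate 1) and Tet3 (replicate 2) were. In Rif1_KO replicate 1 Dnmt3b (4.24) lay above Tet2 (3.48) and Tdg (1.71), and in replicate 2 (2.22) below both (2.73 and 4.49). Tet1 was among the lowest 3 genes in both.

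Profiles were set beside those of 96 other genes (the rest of the 10 and the pathway lists), each centred on its mean log2 CPM over the 4 libraries, with the largest deviation in any library as the measure of likeness. Uhrf2 and Dnmt3b were nearest to each other, with a largest deviation of 0.62. Tdg was nearest to Shmt2, a mitochondrial enzyme of one-carbon metabolism (0.35), which had 10.5 and 22.1 CPM under Rif1_KO, against 0.461 and 16.2 CPM under WT. Dnmt1 was nearest to Neil1 (0.37), Tet3 to the uracil glycosylase gene Ung (0.42), Dnmt3l to Ahcy (0.51), Dnmt3a to Zfp445 (0.52), Tet1 to Dnmt3a (0.60), Tet2 to Cdca7 (0.66) and Uhrf1 to Daxx (0.74). Neil1 was barely detected, with 0.904 and 3.07 CPM under Rif1_KO, against 0.461 and 0.323 CPM under WT. With 4 libraries that share their preparation and depth, such likeness is a description.

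Other genes of the pathway, taken from lists chosen with earlier results known, were not called by edgeR, where 0.0129% of all tested genes were. Their list medians ran between -2.39 and 0.65, against 1.85 for the writers and erasers. The latter includes Dnmt3b, Uhrf2 and Tdg, tested only through their Rif1_KO counts. A raised median was not particular to the writers and erasers, as the stromal marker list had 2.0. Of 10 methyl-CpG readers all were tested, 3 had a fitted fold change above 0, as did 46.1% of all tested genes, and the median log2 fold change was -0.69. Mbd3, a subunit of the NuRD complex, had 7.31 and 32.0 CPM under Rif1_KO, against 26.4 and 30.5 CPM under WT. Mbd4, a thymine glycosylase, had 6.48 and 30.9 CPM under Rif1_KO, against 30.03 and 18.7 CPM under WT. Both overlapped, with Rif1_KO replicate 1 the lowest library.

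Base excision repair and deamination genes had a median of -0.94 (12 of 16 tested). Of these, 3 had a fitted fold change above 0, where 46.1% of all tested genes did. For 4, both Rif1_KO values lay below both WT values, an order that 18.4% of all tested genes had. Apex1, the abasic site endonuclease, had 2655 and 4132 counts under Rif1_KO, against 3344 and 1633 counts under WT. Ung had 13.4 and 8.53 CPM under Rif1_KO, against 41.6 and 2.37 CPM under WT, with WT replicate 1 high as for Tet3. At an unadjusted edgeR p under 0.05, 1 gene of this list was lower, where 3.05% of all tested genes were. It was Parp1, named because the count is small.

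Maintenance cofactors had a median of 0.03 (10 tested, 5 above 0, near the share over all tested genes). For 3 of the 10 both Rif1_KO values lay above both WT values, where 21.0% of all tested genes did. The reverse order held for 0 of the 10, and for 18.4% of all tested genes. At an unadjusted edgeR p under 0.05, 1 was lower, where 3.05% of all tested genes were. It was Dppa3, whose protein is known in mouse oocytes and zygotes to restrain UHRF1 and to shield maternal methylation. Dppa3 had 11.8 and 5.77 CPM under Rif1_KO, against 10.2 and 165 CPM under WT, so its log2 fold change of -3.31 (SE 1.27, edgeR adjusted p = 0.577) rested on WT replicate 2, without which it was -0.22. Imprint and retroelement silencing genes had a median of 0.65 (9 tested, 7 above 0, where 46.1% of all tested genes were). Of these, the imprint reader Zfp57 had 35.7 and 60.0 CPM under Rif1_KO, against 106 and 87.7 CPM under WT. Its corepressor Trim28 had 133 and 172 CPM under Rif1_KO, against 225 and 80.2 CPM under WT. Zfp57 and Trim28, named whatever their values, had log2 fold changes of -1.02 and 0.0, both below the list median.

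Genes of the methyl donor cycle had a median of 0.40 (9 of 10 tested, 7 above 0, where 46.1% of all tested genes were). Mat2a, which makes the methyl donor S-adenosylmethionine, had 83.6 and 69.9 CPM under Rif1_KO, against 59.1 and 207 CPM under WT. Ahcy, which clears the product of methyl transfer, had 16.1 and 24.8 CPM under Rif1_KO, against 37.1 and 64.8 CPM under WT. Mat2a and Ahcy, named whatever their values, had log2 fold changes of -0.79 and -1.32, unlike the 7 genes above 0.

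Germline genes whose promoters are known to be silenced by methylation had a median log2 fold change of -2.39 (11 of 18 tested, 1 above 0). Their summed level was 62.3 and 36.4 CPM under Rif1_KO, against 73.0 and 509 CPM under WT, so the difference lay in WT replicate 2. DESeq2 called 2 of them lower, Ddx4 and Dazl, where it called 1.24% of all tested genes lower. Both also stand in the germ cell marker list. Without WT replicate 2 the edgeR log2 fold change of Ddx4 was 0.28, against -5.23 with all libraries, and that of Dazl -2.08, against -5.08. Dazl, an RNA-binding protein gene of germ cells, had 2.03 and 4.08 CPM under Rif1_KO, against 12.99 and 196 CPM under WT.

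Some cell type markers separated the labels as well. All 10 stromal markers had both Rif1_KO values above both WT values, where 21.0% of all tested genes did. Their median log2 fold change was 2.0. They summed to 1702 and 1372 CPM under Rif1_KO, against 576 and 440 CPM under WT. They were above a count of 0 in every library except 1 marker in WT replicate 2. The 13 erythroid markers in the table summed to 9887 and 4270 CPM under Rif1_KO, against 138700 and 113000 CPM under WT. Supporting cell markers summed to 878 and 850 CPM under Rif1_KO, against 852 and 750 CPM under WT, and endothelial markers to 78.5 and 161 CPM under Rif1_KO, against 303 and 161 CPM under WT. Leukocyte markers summed to at most 19.13 CPM in any library, and mesonephric and epithelial markers to 46.7 and 156 CPM under Rif1_KO, against 188 and 284 CPM under WT. The part of these cells in the levels of the writers and erasers was not tested. With haemoglobin, rRNA-region and mitochondrial genes removed before scaling (chosen for this count after seeing the data), 7 of 10 genes had both Rif1_KO values above both WT values, where 23.2% of all tested genes did.

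**Figure D4:**
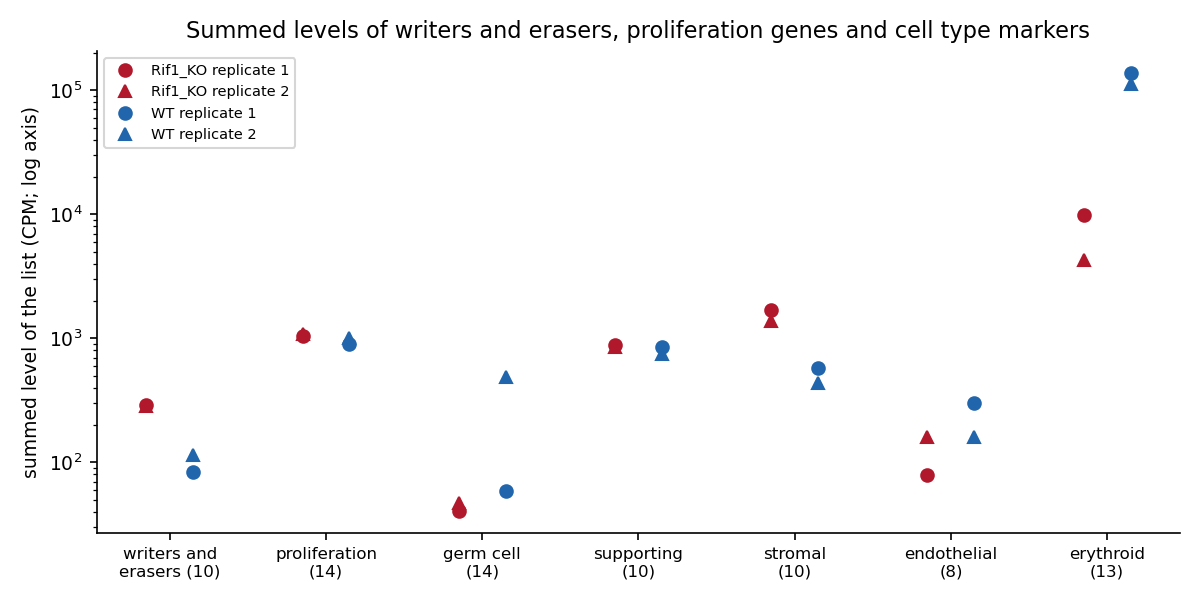
Summed level of the writers and erasers, of proliferation genes and of cell type marker lists in each library, in CPM on a log axis, with the number of genes in brackets and the Rif1_KO values left of the WT values. Writers and erasers (290.0 and 286 CPM against 83.4 and 115 CPM) and stromal markers are higher under Rif1_KO, erythroid markers are lower, and germ cell markers are high in WT replicate 2 alone (487 CPM).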

How the data were processed

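RNA-seq counts of 4 libraries were used. The authors deposited whole-number counts per gene, without normalization, and per the file headers featureCounts 1.6.2 assigned read pairs to GENCODE M17 genes at a minimum mapping quality of 30, with reads in overlapping genes counted for each and no strand option. HISAT2, SAMtools, Trim Galore and FastQC are named, with mm10, per the submitters' processing notes. Groups and replicate numbers came from the sample titles. Libraries of a pair differed beyond sampling noise (chi-square per degree of freedom of 86.6 for Rif1_KO and 107 for WT).

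Symbols were looked up by Ensembl identifier (95 without one). filterByExpr (minimum count 10) left 15466 genes. Genes were compared by the quasi-likelihood test of edgeR 4.0.16 (R 4.3.3), with TMM factors, robust dispersion, no covariate and Benjamini-Hochberg adjustment. SE comes from the fold change and the root of its F statistic. Alternatives were DESeq2 1.42.0, limma-voom (limma 3.58.1), other scalings and filters, a replicate block and each library left out. The steps were tested on simulated data. Exon lengths, in bases, are those of the deposited table. Promoter sequences were RefSeq's. The genes and the lists (170 entries, 1 unmatched) were chosen with earlier results of these data known. All 10 genes are named. Of the pathway lists a fixed set of 11 genes is named whatever their values, and others are marked where they were chosen for their values.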

Additional observations from a re-analysis of the deposited data

How the results depend on the processing

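The genes called numbered 2 with all libraries. Of the settings tried, upper-quartile factors gave 0, removal of haemoglobin, rRNA-region and mitochondrial genes before scaling gave 0, DESeq2 gave 521, no filter on low counts gave 54, and leaving out 1 library gave 5 to 871. Of the 9 writers and erasers tested, DESeq2 called 2 (Dnmt3b and Uhrf2), leaving out 1 library called 0 to 2 (Uhrf2 without either WT library, Dnmt3a without WT replicate 2), and the other settings called 0. Dnmt3b and Uhrf2 entered testing only through their Rif1_KO counts, so their calls cannot count as support. Of 117 fold changes under 13 alternatives, 114 kept their sign. The others were Tet3, at 0.08 with limma-voom, 0.17 with the replicate block and between -1.48 (without WT replicate 2) and 1.88 (without WT replicate 1) with 1 library left out. The cause was not tested. With the replicate block edgeR called 7 genes and 0 of the 9. The replicate numbers share only a number: deviations from the group means correlated at -0.0238 over genes, and the numbers were not taken to pair the libraries. The count of 7 genes with both Rif1_KO values above both WT values, an alternative measure chosen after seeing the data, stayed at 7 or 8 under every scaling and with each library left out. The share of all tested genes with that order ran between 19.7% and 39.9%. The difference in the Dnmt3b share, 14.6 percentage points, was 32.2 per exon length, by the lengths of the models, and 11.7 to 17.4 with 1 library left out. The Uhrf2 share differed by 35.3 points, 22.4 to 48.1 with 1 library left out. The Tet1 share differed by 4.50 points, and by -2.46 to 11.4 with 1 library left out, the negative value without WT replicate 1. The TET to methyltransferase ratio differed by -0.632, and by -1.42 to 0.160 with 1 library left out, the positive value again without WT replicate 1. Over all tested genes the median moved between -0.19 with RLE factors and 0.43 without scaling factors, and single values are to be read relative to it. Depth limits Dnmt3l, Dnmt3b under WT, and Uhrf2 and Tdg in WT replicate 1, all at 10 counts or fewer in at least 1 library.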
